A study of Mus musculus with 9 samples.

Results

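The aryl hydrocarbon receptor and its classical target genes were followed in primary mouse Leydig cells exposed to an organophosphate flame retardant or to its metabolite. The group held 8 genes, chosen by symbol from the 19058 genes of the deposited table, and all 8 were found. They were the receptor gene Ahr, its partner Arnt, the feedback genes Ahrr and Tiparp, the cytochrome P450 genes Cyp1a1 and Cyp1b1, and the detoxification genes Nqo1 and Ugt1a6a. RNA sequencing had been done on 9 libraries of wild-type (WT) testis Leydig cells. The groups, with 3 libraries each, were control cells, cells given triphenyl phosphate (TPhP) and cells given diphenyl phosphate (DPhP), which lacks a phenyl ester of TPhP. Doses, times of exposure, strain and age of the mice were not given in the sources used here. Nothing there states that libraries of the same group were separate animals or cultures, and the p-values then measure only the spread between libraries, possibly a technical spread.

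The receptor is a ligand-activated transcription factor of the bHLH-PAS family. Without ligand it rests in the cytoplasm in a complex with the chaperone HSP90. On binding a ligand such as dioxin or a planar aromatic hydrocarbon it enters the nucleus and pairs with ARNT, and the pair binds DNA at the xenobiotic response element, whose core letters are GCGTG. CYP1A1 and CYP1B1 oxidise aromatic compounds and steroids, and Cyp1a1 is the standard readout of receptor activation. AHRR, the aryl hydrocarbon receptor repressor, competes for ARNT, and TIPARP, a mono-ADP-ribosyltransferase, limits receptor activity, so both close a negative feedback loop. NQO1 reduces quinones and is also a target of the antioxidant regulator Nrf2. UGT1A6 joins glucuronic acid to phenols.

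The core letters were looked for in the RefSeq promoter windows of GRCm38.p6, which run from 250 bases before to 50 bases after a transcription start. Windows were matched by symbol for 7 of the 8 genes. GCGTG stood on either strand in 5 of these 7 windows, and in 32.4% of all 32851 windows. Ahrr held 3 copies, the first bases of which lie 107, 82 and 27 bases before the start. Arnt, Tiparp, Cyp1a1 and Cyp1b1 held 1 copy each, and the windows of Nqo1 and Ugt1a6a held none. The longer core TNGCGTG, which contains GCGTG, stood in the Ahrr window alone, at its copy nearest the start, and in 5.07% of all windows. The core of the antioxidant response element, searched as TGANNNNGC, stood in the windows of Arnt, Ahrr, Tiparp and Ugt1a6a, and in 41.3% of all windows. A match describes the letters only, since binding was not measured. The stretches around the GCGTG letters are shown because they hold the matches next to these starts. Sites more than 250 bases before a start were not searched. Capitals mark the core, which reads CACGC where it lies on the opposite strand.
Arnt (chr3:95434349-95434377, plus strand): ccatagtttgggGCGTGtcttctgcccag
Ahrr (chr13:74292342-74292450, minus strand): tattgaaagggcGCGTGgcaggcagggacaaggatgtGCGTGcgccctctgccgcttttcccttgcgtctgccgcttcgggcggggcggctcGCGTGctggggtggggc
Tiparp (chr3:65528265-65528293, plus strand): ctccgtccggagCACGCgcacgggaggcg
Cyp1a1 (chr9:57697547-57697575, plus strand): tcagataaggagGCGTGgccaacagacac
Cyp1b1 (chr17:79715121-79715149, minus strand): cgtcccgcccctCACGCcccaccccctaa

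**Figure D1:**
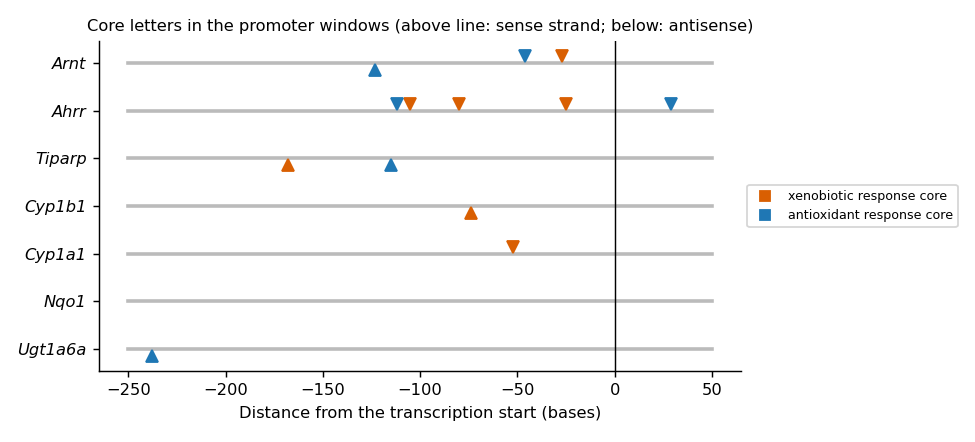
Position of the xenobiotic response core (orange) and the antioxidant response core (blue) in 7 promoter windows, by distance from the transcription start in bases. Markers above a line are on the sense strand and those below on the antisense strand. Ahrr holds 3 xenobiotic cores, and Nqo1 and Ugt1a6a hold none.

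Expression was given as FPKM, fragments scaled to transcript length and to all mapped fragments, so that levels of different genes can be set side by side. Read depth was not given in the sources used here, and FPKM summed to 419107 to 428928 in control and TPhP libraries and 398680 to 401930 with DPhP. The labelled cell type was checked against its markers: the 6 Leydig markers, among them Cyp11a1 and Insl3, had a summed level of 1670 to 1785 FPKM in control libraries, 1758 to 1828 with TPhP and 328 to 342 with DPhP. Of the 6, 5 were lower in every DPhP library than in any control library, whereas Star overlapped (31.7 ± 1.96 FPKM in control, 31.1 ± 1.21 with DPhP). Markers of other testis cells were present as well. The 5 stromal fibroblast markers summed to 1963 to 1991 FPKM in control and 1841 to 1878 in TPhP libraries, against 3916 to 4000 in DPhP libraries, and the 5 peritubular myoid markers to 592 to 660, 583 to 618 and 1528 to 1585. The sums of the 6 macrophage markers overlapped, at 189 to 200, 192 to 196 and 194 to 203 FPKM, and most of each sum was Cd68. Of the other 5 markers, DPhP libraries lay above control for Adgre1, Mrc1 and Cx3cr1 and below it for Csf1r and Ptprc. Sums of the 6 Sertoli, 5 endothelial and 5 germ cell markers stayed at or below 32.3 FPKM in every library, and Fshr, Rhox5 and Tnp1 were at 0 in some. In the DPhP libraries Sertoli and endothelial sums were above control (29.3 to 31.4 against 12.7 to 13.6, and 31.3 to 32.3 against 11.2 to 12.1) and the germ cell sum below (3.49 to 4 against 11.5 to 12.1). Most of the endothelial sum was Cdh5 (9.62 ± 0.490 FPKM in control, 29.3 ± 0.522 with DPhP), while Tek overlapped control and Vwf and, of the Sertoli list, Rhox5 were lower. With TPhP the germ cell sum was 6.79 to 9.13 FPKM and the Sertoli sum 10.4 to 11.2, both below control. Most of the Sertoli sum was Wt1 (9.88 ± 0.405 FPKM in control, 7.47 ± 0.635 with TPhP). Dhh was also lower with TPhP, while Sox9, Amh, Fshr and Rhox5 overlapped control, Sox9 with a higher mean (2.11 against 2.53 FPKM). Of the germ cell markers, Sycp3 overlapped control with both compounds and Tnp1 with TPhP. These shifts ran beside every result below, their part in it was not tested, and in bulk samples fewer cells of a type and less RNA per cell cannot be told apart.

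In control cells the group spanned from nearly undetected to abundant. Ugt1a6a was highest at 56.9 ± 1.88 FPKM (SD, n = 3), above Arnt at 43.1 ± 1.41, Tiparp at 40.2 ± 0.270 and Cyp1b1 at 33.8 ± 2.14 FPKM. Libraries of neighbouring genes in this order did not overlap. Ahr itself was at 9.61 ± 0.734 FPKM, close to Nqo1 at 8.74 ± 0.822, and these 2 overlapped. Ahrr was low at 1.88 ± 0.336 FPKM and Cyp1a1 was listed at 0.02, 0.02 and 0.04 FPKM. Of the CYP1 genes named here, Cyp1b1 alone reached 1 FPKM. Among all 19058 genes, the control mean of Cyp1b1 was above 87.7% and that of Cyp1a1 above 11.0%. The order was the same in TPhP libraries except that Nqo1, at 9.85 ± 0.751 FPKM, stood before Ahr, and the pair again overlapped. In DPhP libraries the order was Cyp1b1, Arnt, Tiparp and Ugt1a6a, then Ahr, Nqo1 and Ahrr, with no overlap between neighbours.

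**Figure D2:**
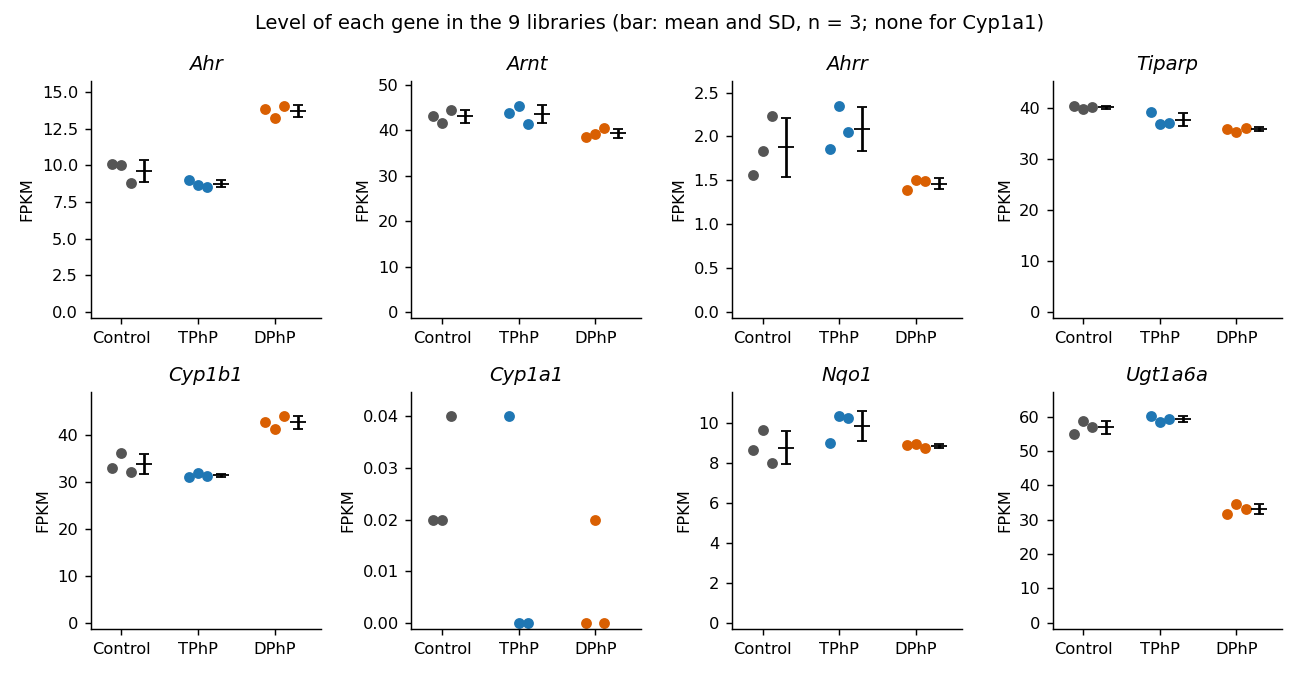
FPKM of the 8 genes in each library, grouped by exposure, with the mean and SD of 3 libraries as a bar beside the points (none for Cyp1a1, which has values listed at 0). Ahr and Cyp1b1 are higher and Ugt1a6a is lower in all 3 DPhP libraries than in any other, while control and TPhP points lie close together.

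The first comparison asked whether TPhP changed the receptor pathway. Of the 7 tested members 0 passed the test in limma, against 6.22% of all tested genes (2.58% higher and 3.64% lower), and 4 of the 7 had an unadjusted p under 0.05, against 21.9% of all. Those 4 were Ahr, Tiparp, Cyp1b1 and Nqo1, with differences of at most 12.6% of the control mean. Cyp1a1 stayed under the filter on low values, which asked for 1 FPKM in at least 3 libraries, and the other 7 reached 1 FPKM in all 9. The second comparison, with DPhP, gave larger differences. Of the 7 tested members 2 rose (Ahr and Cyp1b1; 33.1% of all genes rose) and 4 fell (Arnt, Ahrr, Tiparp and Ugt1a6a; 37.9% of all fell). As 71.0% of all tested genes were called there, 6 of 7 is near the background. Over all genes 4089 rose and 4693 fell with DPhP, and after rescaling to a common sum 5216 rose and 3728 fell, with 2 members called in each direction. With TPhP the split was 319 higher and 450 lower, and 429 and 358 after rescaling. The members' median absolute log2 fold change was 0.22, against 0.23 over all tested genes, and with TPhP it was 0.10 against 0.06. Libraries of the groups did not overlap for 2 of the 7 members with TPhP and for 6 with DPhP, against 27.3% and 73.4% of all tested genes. Both comparisons use the same 3 control libraries.

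The receptor gene Ahr (chromosome 12, 35497979 to 35534989 in GRCm38.p6) stood at 10.06, 10 and 8.76 FPKM in the control libraries. It was at 9, 8.65 and 8.54 FPKM with TPhP and at 13.82, 13.21 and 14.05 FPKM with DPhP. All DPhP libraries lay above all others, whereas TPhP and control overlapped. Ahr rose by 42.5% with DPhP (log2 fold change 0.47, SE 0.052, adjusted p = 6.42e-06). With TPhP the log2 fold change was -0.12 (95% interval -0.24 to -0.01, adjusted p = 0.194). Without control 3, the lowest control library, the TPhP difference passed (log2 fold change -0.18, adjusted p = 0.0470). An uncharacterised gene on the opposite strand overlaps an exon of Ahr, and the labels do not state whether the library kept the strand. Tiparp and Ugt1a6a have such a partner as well.

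Arnt (chromosome 3, 95434367 to 95497240), whose product also pairs with the hypoxia-inducible factors, had the smallest change of its mean with DPhP among the 4 regulators. It was at 43.27, 41.60 and 44.41 FPKM in control, 43.91, 45.42 and 41.50 with TPhP and 38.54, 39.18 and 40.45 with DPhP. The DPhP libraries lay just below the others. The fall with DPhP was 8.59% (log2 fold change -0.13, adjusted p = 0.0109), and the call was lost when libraries were rescaled to a common sum (-0.04, adjusted p = 0.343) or quantile normalised (-0.06, adjusted p = 0.191). With TPhP the log2 fold change was 0.02 (95% interval -0.07 to 0.10). The ratio of Arnt to Ahr FPKM went from 4.51 ± 0.490 in control to 2.88 ± 0.0886 in DPhP libraries and was 5 ± 0.221 in TPhP libraries. The DPhP ratios lay below all others, at the smallest p that 3 against 3 libraries allow (exact permutation test, two-sided, p = 0.1).

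The repressor gene Ahrr (chromosome 13, 74211118 to 74292331) was at 1.56, 1.84 and 2.23 FPKM in control. It was at 1.86, 2.35 and 2.05 FPKM with TPhP and 1.39, 1.51 and 1.49 with DPhP. Its control libraries spread widely for their level, and the highest DPhP library was just below the lowest control library. Ahrr fell with DPhP by 0.22 on the log2 scale (95% interval -0.41 to -0.02, adjusted p = 0.0461), and the log2 fold change with TPhP was 0.11 (adjusted p = 0.538). The DPhP call ended in 11 of 19 alternatives. Among them were leaving out control 2, control 3 or TPhP 3 (adjusted p = 0.0804, 0.194 and 0.0575), or DPhP 1, DPhP 2 or DPhP 3 (0.120, 0.0744 and 0.0819).

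Tiparp (chromosome 3, 65528447 to 65555518), a gene that responds quickly to receptor ligands, was at 40.50, 39.96 and 40.22 FPKM in control. It was at 39.28, 36.92 and 37.21 FPKM with TPhP and at 36.03, 35.40 and 36.19 with DPhP. The groups did not overlap, with control highest and DPhP lowest, but the steps were small. Tiparp fell by 10.8% with DPhP (log2 fold change -0.16, SE 0.030, adjusted p = 4.74e-04), and this call held in all 20 alternatives, with the size down to -0.08 after rescaling to a common sum. With TPhP the log2 fold change was -0.09 (95% interval -0.15 to -0.02, adjusted p = 0.113).

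Of the cytochrome genes, Cyp1a1 (chromosome 9, 57687928 to 57703824) was at or near 0 in every library. It was listed at 0.02, 0.02 and 0.04 FPKM in control, at 0.04, 0 and 0 with TPhP and at 0, 0.02 and 0 with DPhP. Neither exposure brought it to 1 FPKM, and no fold change was drawn from these values. Its liver relative Cyp1a2 was below 0.1 FPKM in each group's mean. Cyp1b1 (chromosome 17, 79706940 to 79715061) stood at 33.06, 36.26 and 32.20 FPKM in control, 31.18, 31.89 and 31.42 with TPhP and 42.86, 41.44 and 44.06 with DPhP. The DPhP libraries were above all others, and the TPhP libraries were just below control. Cyp1b1 rose by 26.4% with DPhP (log2 fold change 0.33, SE 0.042, adjusted p = 2.26e-05), in all 20 alternatives between 0.30 and 0.41. With TPhP the log2 fold change was -0.10 (95% interval -0.19 to -0.01, adjusted p = 0.196). Ahr and Cyp1b1 both rose with DPhP, and the ratio of Cyp1b1 to Ahr FPKM was 3.53 ± 0.212 in control, 3.61 ± 0.126 with TPhP and 3.12 ± 0.0203 with DPhP. The ratio was lower in all 3 DPhP libraries than in any other (exact permutation test, two-sided, p = 0.1, the smallest possible).

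Nqo1 (chromosome 8, 107388225 to 107403205), which encodes the quinone reductase, was the only tested member called in none of the 3 comparisons. It was at 8.62, 9.62 and 7.99 FPKM in control, 8.98, 10.31 and 10.25 with TPhP and 8.89, 8.93 and 8.72 with DPhP. The groups overlapped with control, although TPhP libraries were above every DPhP library. The log2 fold change was 0.16 with TPhP (95% interval 0.01 to 0.30, adjusted p = 0.186) and 0.02 with DPhP (95% interval -0.12 to 0.16, adjusted p = 0.806).

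Ugt1a6a (chromosome 1, 88134809 to 88220002) showed the largest difference of the group. It was at 55.04, 58.79 and 56.81 FPKM in control, 60.01, 58.29 and 59.16 with TPhP and 31.61, 34.40 and 33.23 with DPhP. All DPhP libraries were far below the other 6. Ugt1a6a fell by 41.8% with DPhP (log2 fold change -0.76, SE 0.036, adjusted p = 4.16e-09), and by at least 0.68 on the log2 scale in all 20 alternatives. With TPhP the log2 fold change was 0.06 (95% interval -0.02 to 0.13, adjusted p = 0.400).

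**Figure D3:**
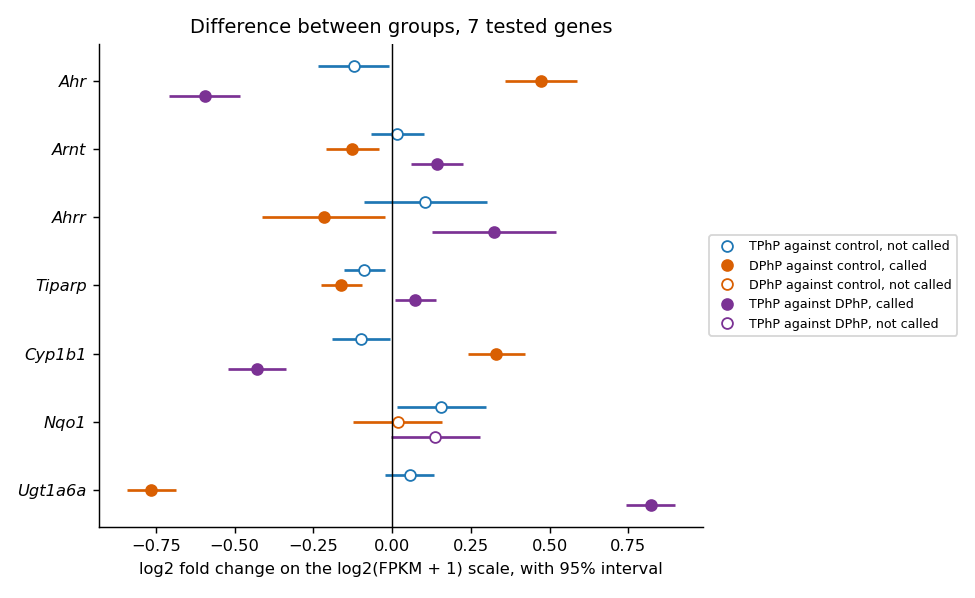
Log2 fold change on the log2(FPKM + 1) scale with its 95% interval for the 7 tested genes in 3 comparisons, filled where the adjusted p was under 0.05. Against control, TPhP points lie within 0.16 of 0, whereas DPhP points run from -0.76 for Ugt1a6a to 0.47 for Ahr. Points of TPhP against DPhP run from -0.59 for Ahr to 0.82 for Ugt1a6a. The Arnt and Ahrr calls with DPhP and the Arnt and Tiparp calls between compounds are lost under some scalings.

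The Ugt1a genes share their last exons, each adding its own first exon, so the split of fragments between them depends on a counting method not stated in the labels. Of the 75-base stretches of Ugt1a6a transcripts in GENCODE M21, 51.2% occur in transcripts of another gene. The closest copy is Ugt1a6b: the coding parts of their first exons are 858 bases long each and differ at 26 positions (97.0% identity), and the 735 coding bases of the later exons are identical. The 90-base stretch of the first exon with the most differences, 13 of the 26, is shown as an example of where fragments of the pair can be told apart. Capitals mark the positions that differ, and the stretch covers coding bases 271 to 360.
Ugt1a6a (chr1:88138744-88138833, plus strand): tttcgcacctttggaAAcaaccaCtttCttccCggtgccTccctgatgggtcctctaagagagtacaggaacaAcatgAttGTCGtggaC
Ugt1a6b (chr1:88107212-88107301, plus strand): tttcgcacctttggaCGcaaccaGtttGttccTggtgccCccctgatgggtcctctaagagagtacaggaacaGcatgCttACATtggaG

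The fall was therefore also looked at over the locus. Ugt1a6b went from 208 ± 4.23 FPKM in control to 137 ± 10.6 with DPhP (log2 fold change -0.60, adjusted p = 2.72e-07). Ugt1a7c went from 138 ± 1.19 to 116 ± 1.94 FPKM (-0.25, adjusted p = 1.34e-05) and Ugt1a9 from 2.84 ± 0.176 to 2.00 ± 0.0208 FPKM (-0.35, adjusted p = 0.000116). Ugt1a10 was at 5.91 ± 0.538 and 6.01 ± 0.255 FPKM (log2 fold change 0.02, adjusted p = 0.788). Of the 5 tested Ugt1a genes 4 fell with DPhP, Ugt1a6a among them, where 37.9% of all tested genes fell, and none with TPhP. As these genes share exons, the 4 falls are not separate observations. Ugt1a1, Ugt1a2 and Ugt1a5 stayed below 1 FPKM in all libraries. The pair Ugt1a6a and Ugt1a6b together held 260 to 268 FPKM in control libraries, 263 to 271 with TPhP and 160 to 179 with DPhP. Over all 8 Ugt1a genes of the table the sum was 409 to 416 FPKM in control libraries, 419 to 423 with TPhP and 287 to 302 with DPhP. The DPhP sums were lower than any other, and the TPhP sums were slightly above control (exact permutation test, two-sided, p = 0.1 for each, the smallest possible). Ugt1a6a held 13.8 ± 0.506% of the sum in control libraries, 14 ± 0.271% with TPhP and 11.2 ± 0.755% with DPhP.

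**Figure D4:**
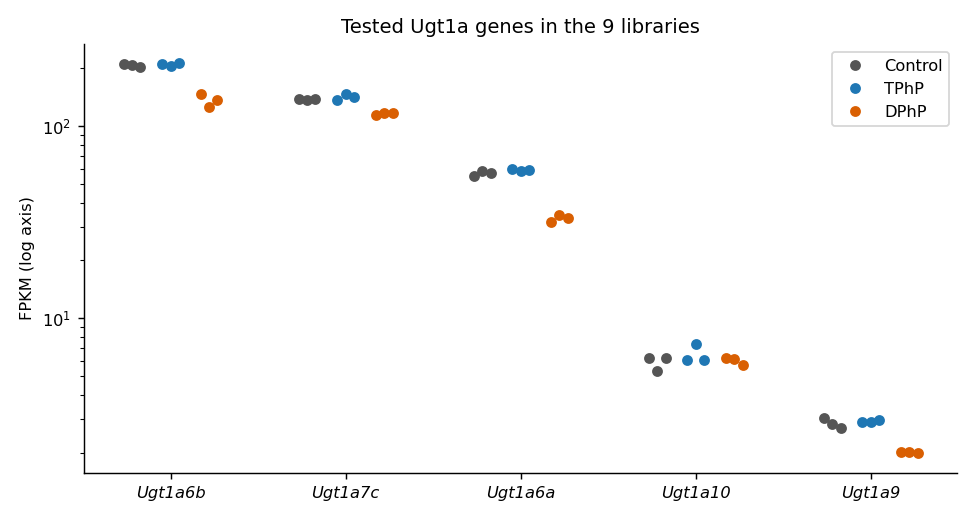
FPKM on a log axis of the 5 tested Ugt1a genes in each library, coloured by exposure. DPhP points lie below the others for Ugt1a6b, Ugt1a7c, Ugt1a6a and Ugt1a9, and among them for Ugt1a10, whose log2 fold change was 0.02.

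TPhP and DPhP differ by a phenyl ester, and the direct comparison of this pair asked where their libraries differed. The labels do not say whether dose and time were matched, so the differences are between these libraries. Of the 7 tested members 4 were higher with TPhP (Ugt1a6a, Ahrr, Arnt and Tiparp; 37.8% of all tested genes were higher) and 2 lower (Ahr and Cyp1b1; 30.9% of all), which together again is near the 68.7% of all tested genes called either way. Libraries did not overlap for any of the 7, and for 71.8% of all tested genes. Ugt1a6a was 78.8% higher (log2 fold change 0.82, SE 0.036, adjusted p = 2.29e-09), and Ahr and Cyp1b1 had log2 fold changes of -0.59 and -0.43 (adjusted p = 9.15e-07 and 2.55e-06). Ahrr, at 2.09 ± 0.247 against 1.46 ± 0.0643 FPKM, had a log2 fold change of 0.32 (adjusted p = 0.00699), and this call held in all 19 alternatives, unlike that of DPhP against control. Arnt was higher by a log2 fold change of 0.14 (adjusted p = 0.00567) and not called after rescaling to a common sum (0.07, adjusted p = 0.118) or quantile normalisation (0.08, adjusted p = 0.0937). Tiparp, at a log2 fold change of 0.07 (adjusted p = 0.0466), lost its call in 14 of 20 alternatives, among them the replicate block (adjusted p = 0.0511), the common sum (0.911) and leaving out any library but TPhP 2 (0.0521 to 0.201). For Nqo1 the interval was -0.004 to 0.28 (adjusted p = 0.0777), and it was called without control 2 or TPhP 1 (0.0437 and 0.0192) and with only the 6 libraries compared (0.0456).

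Other genes of the pathway were taken from 8 lists written from textbook knowledge, which held 77 symbols, 76 of them in the table. Their counts with DPhP stand against the 33.1% of all tested genes that rose and the 37.9% that fell. Among 8 genes of the receptor's cytoplasmic complex and its turnover 4 rose and 3 fell with DPhP (71.0% of all tested genes were called), and none passed with TPhP. Ptges3, the p23 co-chaperone, rose from 69.8 ± 0.256 FPKM to 96.0 ± 3.15 with DPhP (log2 fold change 0.45). The ubiquitin ligase gene Stub1 fell by 0.36 on the log2 scale, and Ddb1, of a cullin 4 ligase, rose by 0.24. The HSP90 genes were called in opposite directions, Hsp90aa1 at a log2 fold change of 0.17 and Hsp90ab1 at -0.18, the latter not called after quantile normalisation (adjusted p = 0.229).

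The list of bHLH-PAS relatives also held the PAS genes Per1 and Per2. Of its 8 tested genes 3 rose and 4 fell with DPhP, against 71.0% of all called. Arnt2 encodes another partner protein of the family, and its level of 7.27 ± 0.537 FPKM in control fell to 4.43 ± 0.478 (log2 fold change -0.61). The clock gene Arntl2 fell from 1.78 ± 0.0289 to 0.707 ± 0.150 FPKM (-0.71), while Arntl rose by 0.39 and Hif1a by 0.25. The rise of Clock (0.10, adjusted p = 0.0301) was lost with the replicate block (0.0503) and without control 1, control 2 or any 1 DPhP library (0.0609 to 0.0877). With TPhP only the clock gene Per1 passed of the list (log2 fold change -0.21, adjusted p = 0.0328), and it was lost without control 1 (0.115), control 3 (0.0838) or any TPhP library (0.0762 to 0.104). Of 9 coactivators and corepressors 4 rose with DPhP, led by Ncoa1 (10.2 ± 0.329 to 13.7 ± 0.515 FPKM, log2 fold change 0.39) and Sp1 (0.20). None passed with TPhP. The DPhP call of the corepressor gene Ncor1 ended without control 1 (adjusted p = 0.0909), DPhP 2 (0.0577) or DPhP 3 (0.0568). After rescaling to a common sum 8 of the 9 rose, where 5216 of all 12369 tested genes rose. With median-of-ratios size factors 7 of the 9 rose, where 4499 of all 12369 did.

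Further receptor targets went both ways with DPhP: of 8 tested, 3 rose and 5 fell, where 71.0% of all tested genes were called. Nedd9, a scaffold gene of cell adhesion, rose from 4.33 ± 0.263 FPKM to 13.8 ± 0.310 (log2 fold change 1.48, adjusted p = 2.73e-10), and Ereg, which encodes epiregulin, from 1.23 ± 0.173 to 3.34 ± 0.411 FPKM (0.96). Aldh3a1, an aldehyde dehydrogenase gene widely used as a receptor target, fell from 3.67 ± 0.163 FPKM to 1.21 ± 0.205 (log2 fold change -1.08, adjusted p = 1.52e-07). Slc46a3, a lysosomal transporter gene, fell by 0.30 on the log2 scale. The fall of Nfe2l2, the Nrf2 gene (-0.07, adjusted p = 0.0226), was lost in 6 of 20 alternatives. Among them were leaving out control 2 (0.0858) or DPhP 3 (0.0597), and its sign turned after rescaling to a common sum (0.01) and with quantile normalisation (0.03). That of Cdkn1b, which encodes the cell cycle inhibitor p27 (-0.16, adjusted p = 0.00557), was lost after rescaling to a common sum (0.106). The other 5 genes of the list, Cyp1a2 and Gsta1 among them, were under the filter.

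Enzymes that make receptor ligands from tryptophan were mostly low. Of 10 genes 7 were under the filter. Ido1, Ido2 and Tdo2, which open the kynurenine pathway, stayed at or below a group mean of 0.12 FPKM. Il4i1, also under the filter, varied more, at 0.23, 1.05 and 0.76 FPKM in control, 0.22, 0.98 and 0 with TPhP and 0.25, 0 and 0 with DPhP. Of the 3 tested, Kyat1 fell with DPhP (3.05 ± 0.0513 to 2.05 ± 0.280 FPKM, log2 fold change -0.41), Kyat3 rose by 0.23, a call lost without DPhP 3 (adjusted p = 0.0688), and Afmid did not pass (-0.11, adjusted p = 0.168). Relatives of Tiparp among the mono-ADP-ribosyltransferases split as well, with 2 of 7 higher and 2 lower with DPhP, a share below the 71.0% of all tested genes called. Parp10 and Parp16 fell by 0.46 and 0.40 on the log2 scale, and Parp9 and Parp14 rose by 0.24 and 0.17. Neither list had a call with TPhP. Without DPhP 2, however, Afmid was called both with TPhP (log2 fold change 0.23 and adjusted p = 0.0785 with all libraries, 0.0414 without) and with DPhP (0.0256).

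Nrf2 targets beside Nqo1 were looked at because the gene belongs to that pathway too. Of 10, 1 rose (Txnrd1, thioredoxin reductase, log2 fold change 0.23) and 4 fell with DPhP, among them Me1 (malic enzyme, -0.99) and the glutathione synthesis gene Gclc (-0.49). These 5 of 10 compare with 71.0% of all tested genes called. The other falls were less firm. That of Gsr ended without any 1 control library, DPhP 2 or DPhP 3 (adjusted p = 0.0546 to 0.113) and that of G6pdx without control 1, control 2 or DPhP 1 (0.0623 to 0.110), and both ended after rescaling to a common sum (0.169 and 0.750), where the log2 fold change of G6pdx turned to 0.01, as it did with quantile normalisation (0.03). With TPhP, Me1 rose by 0.10 (adjusted p = 0.0318), which ended without any 1 control or TPhP library (0.0669 to 0.114). Hmox1, a standard marker of that response, had log2 fold changes of -0.07 with TPhP and -0.05 with DPhP (adjusted p = 0.313 and 0.271). The DPhP value ran from -0.09 to 0.05 over the 20 alternatives and was called without control 3 (adjusted p = 0.0171).

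**Figure D5:**
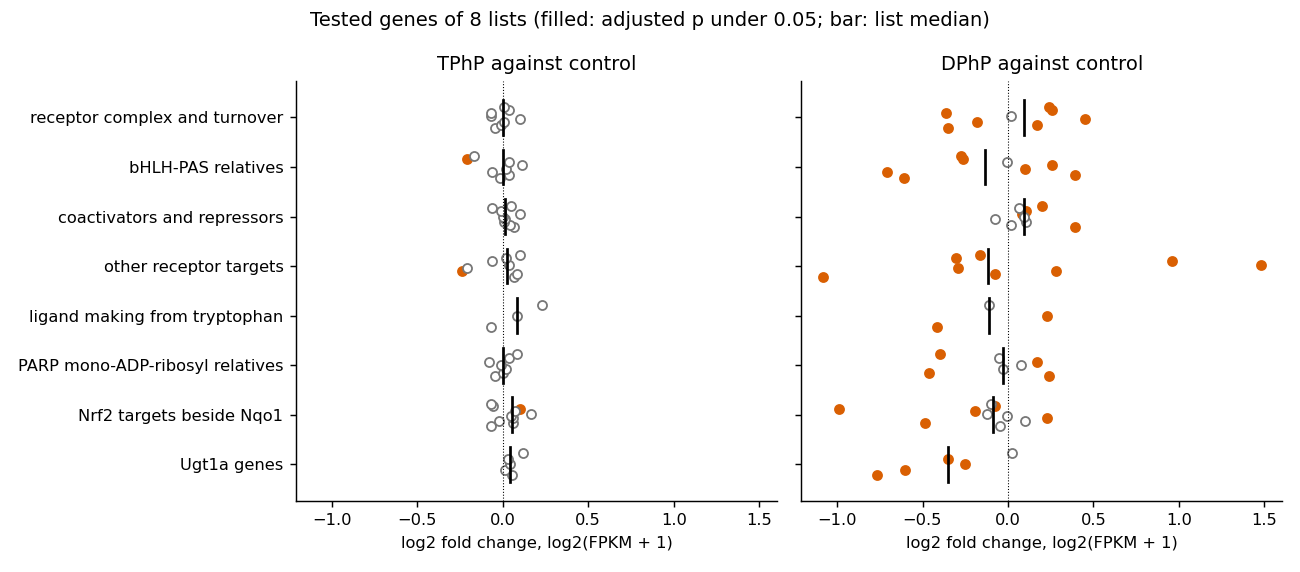
Log2 fold change of the tested genes of 8 lists with TPhP (left) and DPhP (right) against control, on the log2(FPKM + 1) scale, filled where the adjusted p was under 0.05, with the list median as a bar. TPhP medians lie between -0.001 and 0.08, and DPhP medians between -0.35 for the Ugt1a genes and 0.10 for the coactivators.

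List medians with DPhP ran from -0.35 to 0.10, against -0.02 over all tested genes. The genes whose profile over the 9 libraries was most like that of a member were found by the smallest root mean square distance between centred log2(FPKM + 1) profiles. For Ahr these were Kif2c, AW551984 and Vsig4, at distances of 0.047, 0.050 and 0.050. Kif2c, a mitotic kinesin gene, was at 11.4 ± 0.504 FPKM in control, 10.8 ± 0.0907 with TPhP and 16.4 ± 0.503 with DPhP. Vsig4, a macrophage complement receptor gene, was at 11.1 ± 0.729, 9.93 ± 0.452 and 14.5 ± 0.427 FPKM. The nearest gene to Cyp1b1 was Birc5, which encodes survivin (28.3 ± 0.885, 27.1 ± 0.749 and 36.1 ± 0.855 FPKM, distance 0.034), and that to Ugt1a6a was Brcc3 (21.9 ± 0.757, 22.4 ± 0.952 and 12.6 ± 0.327 FPKM, distance 0.034). For Tiparp it was Ext2, for Arnt Hacd1, for Ahrr Homez and for Nqo1 Hebp1, at distances of 0.016, 0.028, 0.059 and 0.041. These profiles share the same 9 libraries and the DPhP step that moved most genes.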

How the data were processed

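Libraries of mRNA enriched on oligo(dT) beads were made from Trizol extracts, per the labels' protocols. The authors deposited FPKM values for each library and gene, and per the submitters' processing notes the build was GRCm38.p6. Aligner, counting tool and filters were not given in the sources used here. All 9 columns matched a label. As FPKM is a normalised unit, no count test was run.

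Values were analysed as log2(FPKM + 1), which understates changes of low genes. The 12369 genes that reached 1 FPKM in 3 or more of the 9 libraries entered a linear model in limma 3.58.1 (R 4.3.3), fitted to all groups together with an intensity trend and 6 residual degrees of freedom. P-values are two-sided and Benjamini-Hochberg adjusted over all tested genes, with a threshold of 0.05. Intervals are 95% intervals of that model. The procedure was tested on simulated data in which few genes were changed. That setting does not cover the comparison of DPhP with control, where 71.0% of tested genes were called. The members and lists were chosen with earlier results of these data known. Genes named beside the 8 members were the Ugt1a genes, up to 4 genes with the smallest p per list and comparison, and the nearest profiles. Genes outside this rule were chosen after their values were seen: Hsp90aa1, Hsp90ab1, Clock, Cyp1a2, Gsta1, Slc46a3, Ido1, Ido2, Tdo2 and Il4i1. Some list genes are counted but not reported here by name. Other steps and figures used Python 3.11.15 with pandas 2.3.3.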

Additional observations from a re-analysis of the deposited data

How the results depend on the processing

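The 20 alternatives were other pseudocounts, filters, scalings and models and leaving out each library. With a filter on a mean of 5 FPKM Ahrr was not tested. Of 417 recomputed differences of members, 381 kept their direction and side of the threshold, 29 lost a call and 4 gained one. The 3 that turned sign were never called: Arnt with TPhP without control 2 and without TPhP 2 (log2 fold change -0.0128 at the lowest and 0.0508 at the highest over the left-out libraries) and Nqo1 with DPhP without control 3 (-0.0378, against 0.0824 at the highest). Over the leave-one-out fits the number of members called with TPhP was 0 to 1, and genes called with TPhP numbered 414 to 766, against 769. The number fell by more than 1.5 times without control 1 (498), control 2 (436), TPhP 1 (434) or TPhP 2 (414). With the longer core TNGCGTG 1 promoter window in place of 5 held a match. Rescaling to a common sum turned the split of called genes between the compounds from 4672 higher with TPhP and 3823 lower to 3800 and 4770. Between libraries with the same replicate number, deviations from the group means had correlations between -0.12 and 0.10. As libraries with different numbers were not compared, these values cannot decide whether a number marks a shared culture. With the replicate block, members called were 0, 6 and 5 and genes called 663, 8711 and 8458, for TPhP and DPhP each against control and for the pair. Unknown depth limits what Cyp1a1 and Ahrr can show.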
